A study of Mus musculus with 8 samples.

Results

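Osteoclasts are bone-resorbing cells formed when myeloid precursors of the macrophage lineage fuse. Described here are 9 genes listed as osteoclast genes, chosen by name from 55417 distinct gene names in the deposited tables. They are Tnfrsf11a, Oscar, Calcr, Nfatc1, Dcstamp, Ocstamp, Atp6v0d2, Acp5 and Ctsk. All 9 have a row in the AE9a table and 7 in the MLL-AF9 table, where Oscar and Calcr were not analysed here. RNA was measured in cultured bone marrow stromal cells of Id1-/- and Id1+/+ mice, taken 6 weeks after transplantation of acute myeloid leukaemia driven by the fusion oncogene MLL-AF9 or AE9a (AML1-ETO9a), so every group comes from a leukaemic animal and no leukaemia-free group was analysed here. The groups used are MLL-AF9 Id1-/- and MLL-AF9 Id1+/+ with 2 libraries each, and AE9a Id1-/- and AE9a Id1+/+ with 1 usable library each. The labels number the replicates without naming animals, so the p-values measure the spread between these libraries, which may be technical.

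Osteoclast formation needs M-CSF, which keeps precursors alive, and RANKL, which binds the receptor RANK. RANK signalling, helped by immunoreceptors that signal through ITAM adaptors, induces the transcription factor NFATc1. NFATc1 switches on genes for cell fusion and for the acid and proteases that dissolve bone. Id1, the gene deleted in the knockout mice, encodes a helix-loop-helix protein without a DNA-binding part, which pairs with E proteins and so keeps them off their E-box sites, of the form CANNTG.

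Depth was 17864812 to 22510346 counts per library. Id1 was at 11.6 and 12.0 CPM (TMM-scaled counts relative to library size) in MLL-AF9 Id1-/- libraries, against 34.6 and 28.8 CPM in Id1+/+. In AE9a it was at 4.28 CPM in Id1-/- and 19.6 CPM in Id1+/+. The labels call the cells mesenchymal, but the 15 macrophage markers summed to 22351 to 34674 CPM in every library. The 14 mesenchymal and osteoblast markers summed to 242 to 3659 CPM. The MLL-AF9 sums cover the 14 macrophage and 12 mesenchymal markers that had a row there. No macrophage marker with a row was at 0, and of the mesenchymal list only Bglap2 (in 1 MLL-AF9 Id1+/+ library) and Bglap (in AE9a Id1+/+) were. Fewer cells of a type and less RNA per cell cannot be told apart in such bulk libraries. Whether the libraries held osteoclasts was not tested. Of the 9 genes, Calcr had 0 counts in both AE9a libraries, and Oscar had 0 in Id1-/- and 3 in Id1+/+.

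In MLL-AF9 the 7 genes tested did not move as a block. Acp5 and Ctsk, the secreted enzymes, rose in Id1-/- by 1.54-fold and 1.42-fold. Atp6v0d2 and Dcstamp, which serve in cell fusion, fell. Tnfrsf11a, Nfatc1 and Ocstamp did not pass the test. Of 7 genes tested, 4 were therefore called at an adjusted p under 0.05, beside 27.8% of all 14137 genes. The 2 higher stand beside 17.2% of all genes and the 2 lower beside 10.6%. The median log2 fold change of the 7 was 0.12, against 0.00 over all genes. The libraries of the genotypes did not overlap for 6 of the 7, beside 65.0% of all genes. In AE9a, 5 of the 6 genes that averaged 1 CPM or more had a lower level in Id1-/-. The median log2 ratio over all 12730 genes at that level was -0.0084. None of the 6 was past 2-fold, beside 11.9% of genes past 2-fold higher and 1.7% lower.

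The promoters of Ctsk and Acp5 are shown because these genes rose together in MLL-AF9 and differ between the models. They are RefSeq windows on GRCm38.p6 of 300 bases around the annotated start. Capitals mark matches to CANNTG, the E-box, or to GAGGAAG, a PU.1-type site, on either strand.
Ctsk (chr3:95498960-95499259, plus strand): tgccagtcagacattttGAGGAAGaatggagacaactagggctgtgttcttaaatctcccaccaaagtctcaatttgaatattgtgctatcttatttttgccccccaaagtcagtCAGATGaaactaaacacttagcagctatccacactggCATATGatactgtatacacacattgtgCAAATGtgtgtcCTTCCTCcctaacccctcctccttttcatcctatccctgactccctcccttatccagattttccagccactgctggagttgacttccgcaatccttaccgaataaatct
Acp5 (chr9:22135697-22135996, minus strand, the most upstream of 3 windows): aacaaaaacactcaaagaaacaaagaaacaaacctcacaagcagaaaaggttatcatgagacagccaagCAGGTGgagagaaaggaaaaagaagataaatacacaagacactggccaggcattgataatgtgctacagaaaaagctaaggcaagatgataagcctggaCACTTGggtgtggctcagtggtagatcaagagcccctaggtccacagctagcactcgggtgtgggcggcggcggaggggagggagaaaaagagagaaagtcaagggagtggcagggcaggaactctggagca
The Ctsk window had 3 CANNTG matches, a number that 17.6% of all 32851 windows reach. It also had 2 GAGGAAG matches. Any GAGGAAG match occurs in 13.6% of windows, and the share with as many as Ctsk was not counted. The Acp5 window shown had 2 CANNTG matches, a number reached in 39.6% of windows. The other Acp5 windows had 1 and 2. CANNTG occurs in 72.3% of all windows. Neither window shown held CACGTG (a form of CANNTG, in 7.15% of windows) or the AP-1 site TGACTCA (5.2% of windows). Both strands were searched. The table has windows for 5 of the 9 genes and none for Atp6v0d2, Dcstamp, Ocstamp and Nfatc1.

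**Figure D1:**
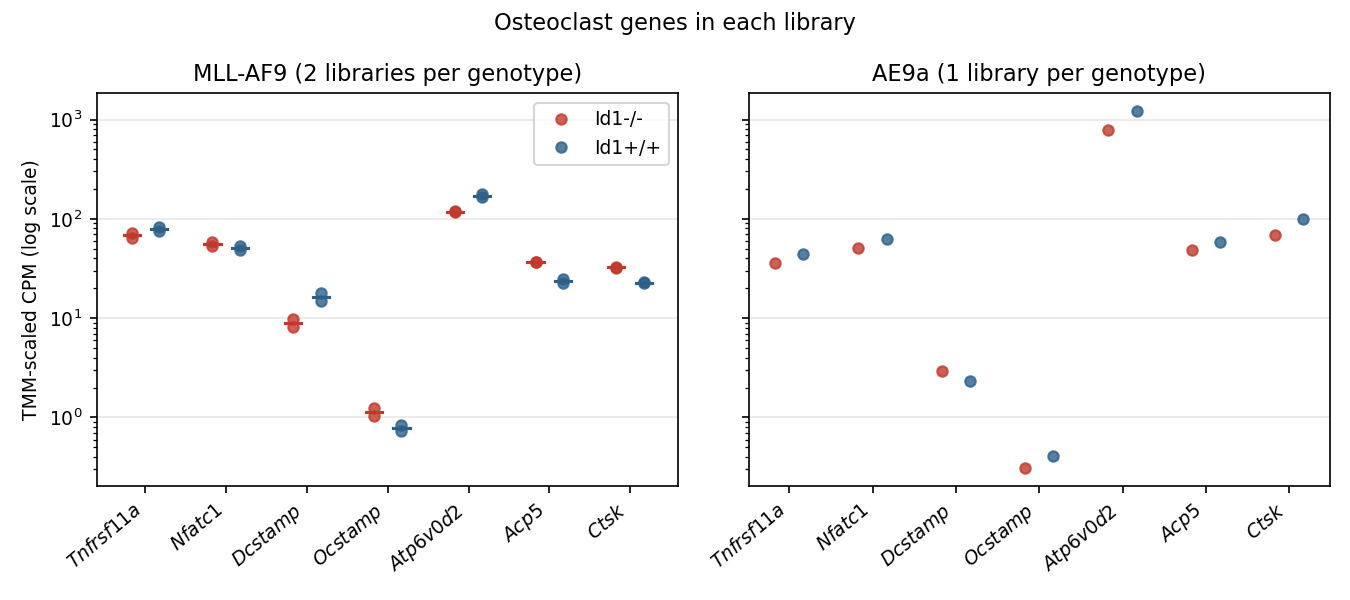
Level of each gene in every library as TMM-scaled CPM on a log axis, with red points for Id1-/- and blue for Id1+/+, a bar at the mean of 2 MLL-AF9 libraries, and 1 library per genotype in AE9a. Atp6v0d2 has the highest level in all 6 libraries, and Acp5 and Ctsk are higher in Id1-/- in MLL-AF9 but lower in AE9a.

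Tnfrsf11a encodes RANK, the receptor for RANKL. It was at 63.5 and 72.7 CPM in MLL-AF9 Id1-/- libraries, against 75.7 and 82.6 CPM in Id1+/+. The Id1-/- libraries were lower than both Id1+/+ libraries, without overlap. The log2 fold change was -0.22 (SE 0.09), with an adjusted p of 0.0908 by edgeR's quasi-likelihood test. In AE9a it was at 35.6 CPM in Id1-/- and 44.3 CPM in Id1+/+, a ratio of 0.804 (95% exact binomial counting interval 0.726 to 0.889). Oscar, a co-receptor that signals through the FcRγ adaptor, had 0 counts in AE9a Id1-/- and 3 in Id1+/+. Calcr, the calcitonin receptor of mature osteoclasts, had 0 counts in both. A count of 0 allows up to 3 counts, or 0.155 CPM in Id1-/- and 0.153 CPM in Id1+/+, so neither receptor could be compared.

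Nfatc1 encodes the factor that RANK signalling switches on. It was at 52.8 and 58.1 CPM in MLL-AF9 Id1-/-, against 48.4 and 53.7 CPM in Id1+/+. It was the gene of the 7 whose genotypes overlapped. The log2 fold change was 0.12 (SE 0.09, edgeR adjusted p = 0.374). In AE9a the levels were 50.4 CPM in Id1-/- and 63.1 CPM in Id1+/+, a ratio of 0.799 (interval 0.734 to 0.869).

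Dcstamp encodes a membrane protein needed for fusion of precursors, and lies on mm10 at chr15:39745930-39760938 on the plus strand. It was at 9.82 and 8.07 CPM in MLL-AF9 Id1-/-, against 17.7 and 14.8 CPM in Id1+/+. Both Id1-/- libraries were below both Id1+/+ libraries. The log2 fold change was -0.86 (SE 0.15, edgeR adjusted p = 0.000523). In AE9a the gene was scarce, with 57 counts in Id1-/- and 46 in Id1+/+, and the ratio of 1.25 had an interval of 0.833 to 1.89 that includes no difference. Ocstamp, a second membrane protein of fusion, had 20 and 23 counts in MLL-AF9 Id1-/-, against 17 and 16 in Id1+/+, and 6 in AE9a Id1-/- against 8 in Id1+/+. At these counts no difference was detectable (log2 0.53, SE 0.41, edgeR adjusted p = 0.37).

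Atp6v0d2 encodes a subunit of the proton pump that is abundant in osteoclasts and is also needed for fusion (mm10 chr4:19876841-19922605, minus strand). It was at 119 and 116 CPM in MLL-AF9 Id1-/- libraries, against 176 and 167 CPM in Id1+/+. The Id1-/- libraries were below the Id1+/+ libraries. The log2 fold change was -0.55 (SE 0.08, edgeR adjusted p = 8.93e-05). In AE9a it was at 787 CPM in Id1-/- and 1210 in Id1+/+, a ratio of 0.651 (interval 0.637 to 0.664). It was lower in Id1-/- in both models.

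Acp5 encodes TRAP, the tartrate-resistant acid phosphatase stained to count osteoclasts (mm10 chr9:22126727-22135711, minus strand). It was at 36.5 and 36.4 CPM in MLL-AF9 Id1-/-, against 24.8 and 22.6 CPM in Id1+/+. Every Id1-/- library was above every Id1+/+ library. The log2 fold change was 0.62 (SE 0.10, edgeR adjusted p = 0.000277). Its exons share 137 bases with the antisense gene 6530413G14Rik, which had 1 count in AE9a Id1-/- and 0 in Id1+/+. In AE9a, Acp5 was at 49.1 CPM in Id1-/- and 58.7 CPM in Id1+/+, a ratio of 0.836 (interval 0.766 to 0.911).

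Ctsk encodes cathepsin K, the protease that cuts bone collagen (mm10 chr3:95499256-95509362, plus strand). It was at 32.2 and 32.8 CPM in MLL-AF9 Id1-/-, against 23.2 and 22.5 CPM in Id1+/+. The genotypes were again separate. The log2 fold change was 0.51 (SE 0.10, edgeR adjusted p = 0.00155). In AE9a it was at 68.5 CPM in Id1-/- and 99.2 CPM in Id1+/+, a ratio of 0.690 (interval 0.643 to 0.740).

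**Figure D2:**
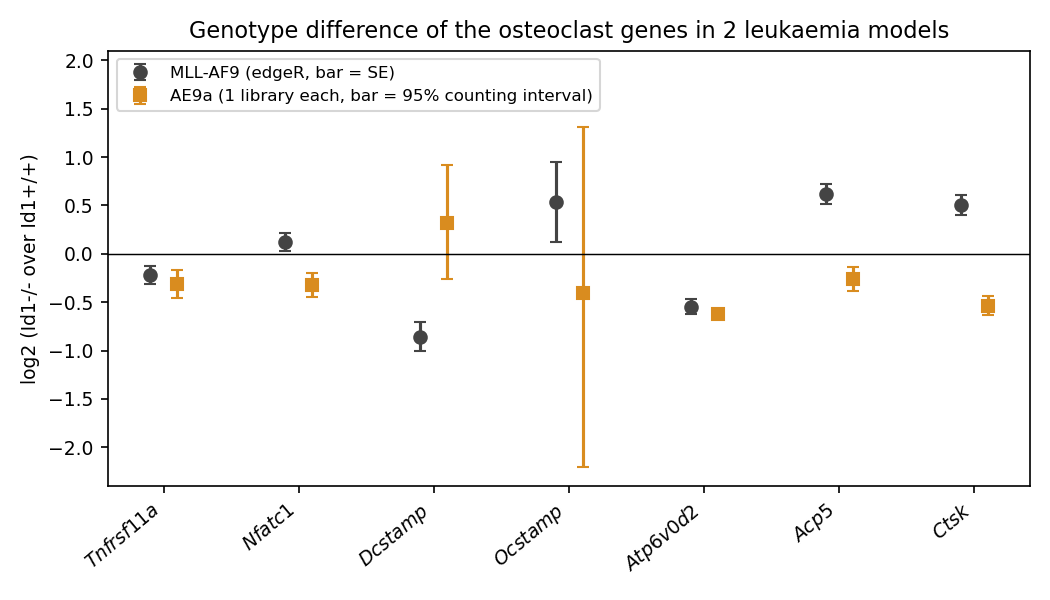
Log2 ratio of Id1-/- over Id1+/+ for the 7 genes in both tables. Round points are MLL-AF9 fits with the SE, and squares are AE9a ratios of 1 library each with the 95% counting interval. Acp5 (0.62 in MLL-AF9) and Ctsk (0.51) lie above 0 in MLL-AF9 and below it in AE9a.

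The test of the difference between models used the interaction of model and genotype, fitted jointly on 6 libraries, and it assumes that the lone AE9a libraries vary like the MLL-AF9 ones. The genotype difference of Ctsk was lower in AE9a than in MLL-AF9 by 1.13 on the log2 scale (-1.13, SE 0.16, edgeR adjusted p = 0.000424), and that of Acp5 likewise (-0.97, SE 0.16, edgeR adjusted p = 0.00188). These were the 2 called of 7, beside 10.3% of all 15110 genes called and 6.57% called negative. For Dcstamp the difference was 1.09 (SE 0.36, edgeR adjusted p = 0.0645) and for Nfatc1 -0.53 (SE 0.16, edgeR adjusted p = 0.0502). Each of these was called in at least 1 alternative setting. Atp6v0d2 gave -0.16 (SE 0.14, edgeR adjusted p = 0.496) and Tnfrsf11a -0.19 (SE 0.17, edgeR adjusted p = 0.541). In the AE9a part of the same fit, Atp6v0d2, Ctsk, Nfatc1 and Tnfrsf11a were lower in Id1-/-, 4 of 7 beside 15.3% of genes, and none was higher, beside 12.2%. The median of this contrast over all genes was -0.08. With library totals the log2 ratios of Tnfrsf11a and Nfatc1 in AE9a were -0.12 and -0.13, against -0.31 and -0.32 with TMM scaling. Acp5 was not called in the AE9a part of the TMM-scaled joint fit (log2 -0.36, edgeR adjusted p = 0.055). With library totals the AE9a log2 ratio of Acp5 was -0.061 and that of Ctsk -0.34, and both interactions were still called.

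Marker counts stand beside 17.2% of all genes called higher and 10.6% called lower in MLL-AF9 Id1-/-. For AE9a, 11.9% of genes were past 2-fold higher in Id1-/- and 1.7% past 2-fold lower. The mesenchymal and osteoblast markers moved with Acp5 and Ctsk in MLL-AF9: 10 of 11 tested were higher in Id1-/-. Their list summed to 3366 and 3659 CPM in Id1-/- against 662 and 743 CPM in Id1+/+. In AE9a that sum was 1192 CPM in Id1-/- and 242 CPM in Id1+/+, while Acp5 and Ctsk were lower in Id1-/-. The macrophage markers had 5 higher, 5 lower and 4 not called in MLL-AF9, and summed to 22819 and 22351 CPM in Id1-/- against 27646 and 24969 CPM in Id1+/+. In AE9a they summed to 26732 CPM in Id1-/- and 34674 CPM in Id1+/+, mostly Lyz2, with 7 of 13 above a ratio of 1, 6 below and a median log2 of 0.06. Neutrophil markers, 8 of 9 tested lower, summed to 330.04 and 332 CPM in MLL-AF9 Id1-/- against 569 and 494 CPM in Id1+/+, and to 131 CPM in AE9a Id1-/- against 191 CPM in Id1+/+. The AE9a sum was mostly Mmp8, at 107 CPM in Id1-/- and 179 CPM in Id1+/+, while 5 of 7 neutrophil markers at 1 CPM or more had a ratio above 1, 3 of them past 2-fold. B and T lymphocyte markers summed to 117 and 104 CPM in MLL-AF9 Id1-/- against 43.7 and 45.6 CPM in Id1+/+. Almost all of that was the immunoglobulin genes Ighm (65.7 and 49.2 CPM in Id1-/-) and Igkc (50.0 and 52.9 CPM in Id1-/-). Cd79a (log2 0.56) and Cd79b (log2 -0.60) were not called, and no Cd3 gene had an MLL-AF9 row. The lymphocyte sum in AE9a was 4.64 CPM in Id1-/- against 2.81 CPM in Id1+/+. Erythroid markers summed to 1.89 and 1.41 CPM in MLL-AF9 Id1-/- against 1.96 and 2.19 CPM in Id1+/+. In AE9a they summed to 125 CPM in Id1-/- against 29.3 CPM in Id1+/+, and 7 of 8 were past 2-fold higher in Id1-/-. Only 4 of the 9 lymphocyte and 4 of the 9 erythroid markers had an MLL-AF9 row, so these sums do not compare between models. The part of these cell types in the results for the osteoclast genes was not tested.

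Levels of different genes are compared per kilobase of exon. In MLL-AF9 Id1-/- the order was Atp6v0d2 at 43.3 CPM per kb, Ctsk at 21.5, Acp5 at 17.97, Tnfrsf11a at 11.4, Nfatc1 at 7.43, Dcstamp at 3.36 and Ocstamp at 0.310, and all neighbours were separate. In MLL-AF9 Id1+/+ it was Atp6v0d2 at 63.2 CPM per kb, Ctsk at 15.1, Tnfrsf11a at 13.2, Acp5 at 11.7, Nfatc1 at 6.83, Dcstamp at 6.11 and Ocstamp at 0.214. There Dcstamp overlapped with Nfatc1. Acp5 thus lay above Tnfrsf11a in Id1-/- and below it in Id1+/+. In AE9a, Atp6v0d2 reached 289.8 CPM per kb in Id1-/- and 445 in Id1+/+, and ranked 103rd of 20556 genes in Id1-/- and 76th of 19805 in Id1+/+.

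Set against Atp6v0d2 per length, Ctsk was at 48.7% and 50.6% in MLL-AF9 Id1-/-, against 23.7% and 24.2% in Id1+/+. Acp5 was at 41.1% and 41.9% in Id1-/-, against 18.9% and 18.1% in Id1+/+. These percentages are taken within a library, so they do not depend on its scaling. The enzymes stood higher against the pump subunit in Id1-/-, without overlap. That direction follows from the opposite calls of these genes in the same libraries, so it is no further result. In AE9a, Ctsk was at 15.6% in Id1-/- and 14.7% in Id1+/+, and Acp5 at 8.34% in Id1-/- and 6.49% in Id1+/+.

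**Figure D3:**
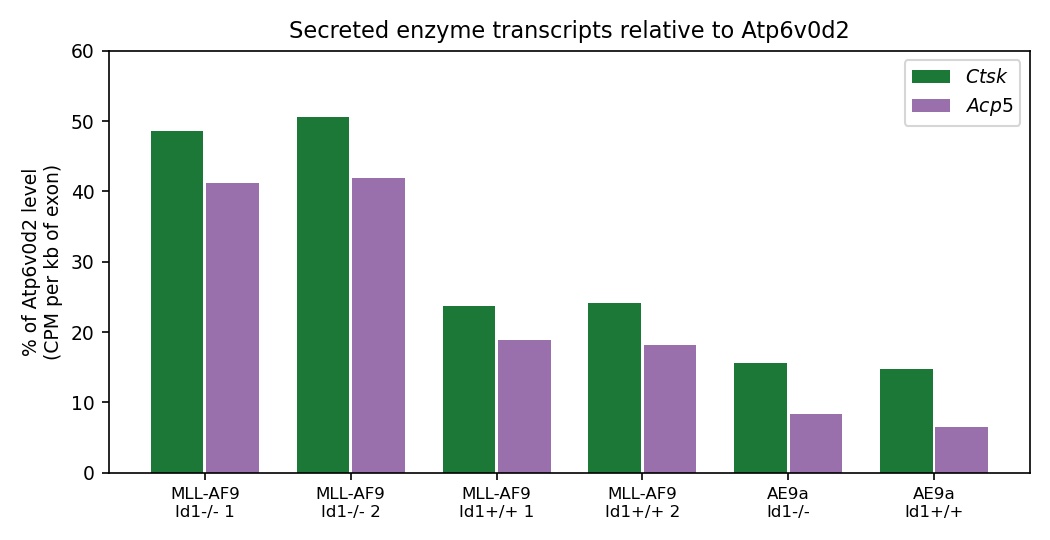
Ctsk (green) and Acp5 (purple) as a percentage of the Atp6v0d2 level per kilobase of exon, in each library. In MLL-AF9, Ctsk stands at 48.7% and 50.6% in Id1-/- against 23.7% and 24.2% in Id1+/+. In AE9a, Ctsk is at 15.6% in Id1-/- and 14.7% in Id1+/+. The MLL-AF9 direction follows from the opposite calls of these genes.

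Between the models, each scaled in its own table, Atp6v0d2 was 6.70 times higher in AE9a than in MLL-AF9 in Id1-/- and 7.05 times in Id1+/+. Ctsk was 2.11 times higher in Id1-/- and 4.34 times in Id1+/+. Dcstamp was at 0.328 of its MLL-AF9 level in Id1-/- and 0.145 in Id1+/+. Model and table cannot be told apart, and these ratios have no test. Over the 6 libraries Acp5 and Ctsk had a Pearson r of 0.968 in log2(CPM + 1), and Dcstamp and Ctsk of -0.971. The genes most like Ctsk were Mr1, Hacd4 and Mon2 (r = 0.998 each), and those most like Atp6v0d2 were Ptgir, Cd300ld and Bex1 (r = 0.999 each), among 10226 genes. The libraries share their model, and 747 genes had an r over 0.95 with Ctsk.

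For the related lists, the shares of all genes tested in MLL-AF9 are again 17.2% higher and 10.6% lower. In AE9a, 11.9% of genes were past 2-fold higher in Id1-/- and 1.7% past 2-fold lower. The median AE9a log2 ratio over all genes at 1 CPM or more was -0.0084. Among 6 ligands, receptors and decoys of the RANK and M-CSF pathways, 3 rose in MLL-AF9 Id1-/-, none fell and 3 were not called. Csf1, the gene of M-CSF, was at 397 and 427 CPM in Id1-/- against 258 and 249 CPM in Id1+/+ (log2 0.70, edgeR adjusted p = 5.98e-06). Tnfrsf11b, the decoy osteoprotegerin, was at 11.2 and 9.74 CPM in Id1-/- against 7.25 and 5.52 CPM in Id1+/+ (log2 0.71, edgeR adjusted p = 0.00657), a call lost without either of 2 libraries. Tnfsf11, the gene of RANKL, was at 7.11 and 6.66 CPM in Id1-/- against 6.86 and 6.80 CPM in Id1+/+ (log2 0.01, edgeR adjusted p = 0.969). In AE9a, 5 of 6 were past 2-fold higher, Csf1 among them at 903 CPM in Id1-/- and 221 CPM in Id1+/+.

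Of 11 ITAM adaptors, co-receptors and kinases, 6 fell in MLL-AF9 and none rose, with a median log2 of -0.35. With TMM scaling all 11 were below a ratio of 1 in AE9a. Fcgr4 had an AE9a log2 ratio of -0.16 there, and library totals raise AE9a log2 ratios by 0.20. Fcer1g, the FcRγ adaptor, was at 474 and 451 CPM in Id1-/- against 841 and 684 CPM in Id1+/+. Of 18 activators, 4 rose and 1 fell, shares near or under those of all genes. The one that fell was Spi1, which encodes PU.1, at 411 and 420 CPM in Id1-/- against 545 and 519 CPM in Id1+/+. Of 11 repressors, 1 rose (Id3, log2 0.70) and 5 fell, among them the deleted Id1 itself. With library totals the 2 repressors that fell were Id1 and Id2. Of 23 fusion and podosome genes tested, 7 rose and 8 fell: Vcl (log2 0.92, with 2090 exon bases shared with Ap3m1 on the other strand) and Sh3pxd2a (0.99) rose, while the tetraspanin gene Cd9 (-0.70) and Adam8 (-0.48) fell.

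Of 29 acid secretion and resorption genes, 3 rose and 18 fell in MLL-AF9. The median log2 was -0.26, against 0.00 over all genes, and in AE9a 23 of 28 were below a ratio of 1 with TMM scaling. All 13 genes of the proton pump in that list fell, a subset picked after its values were seen, so that the count only describes it, with a median log2 of -0.39 in MLL-AF9 and -0.53 in AE9a. With library totals 10 of them fell. The proteases Mmp9 (log2 0.63) and Mmp14 (0.75) rose, while the proteases Mmp12 (-0.85) and Ctss (-0.48) fell. Car2, the carbonic anhydrase that supplies protons, was at 113 and 28.9 CPM in Id1-/- against 0.343 and 0.228 CPM in Id1+/+, so the Id1-/- libraries themselves differed widely, and its log2 fold change was 6.64 to 8.60 when 1 library was left out.

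**Figure D4:**
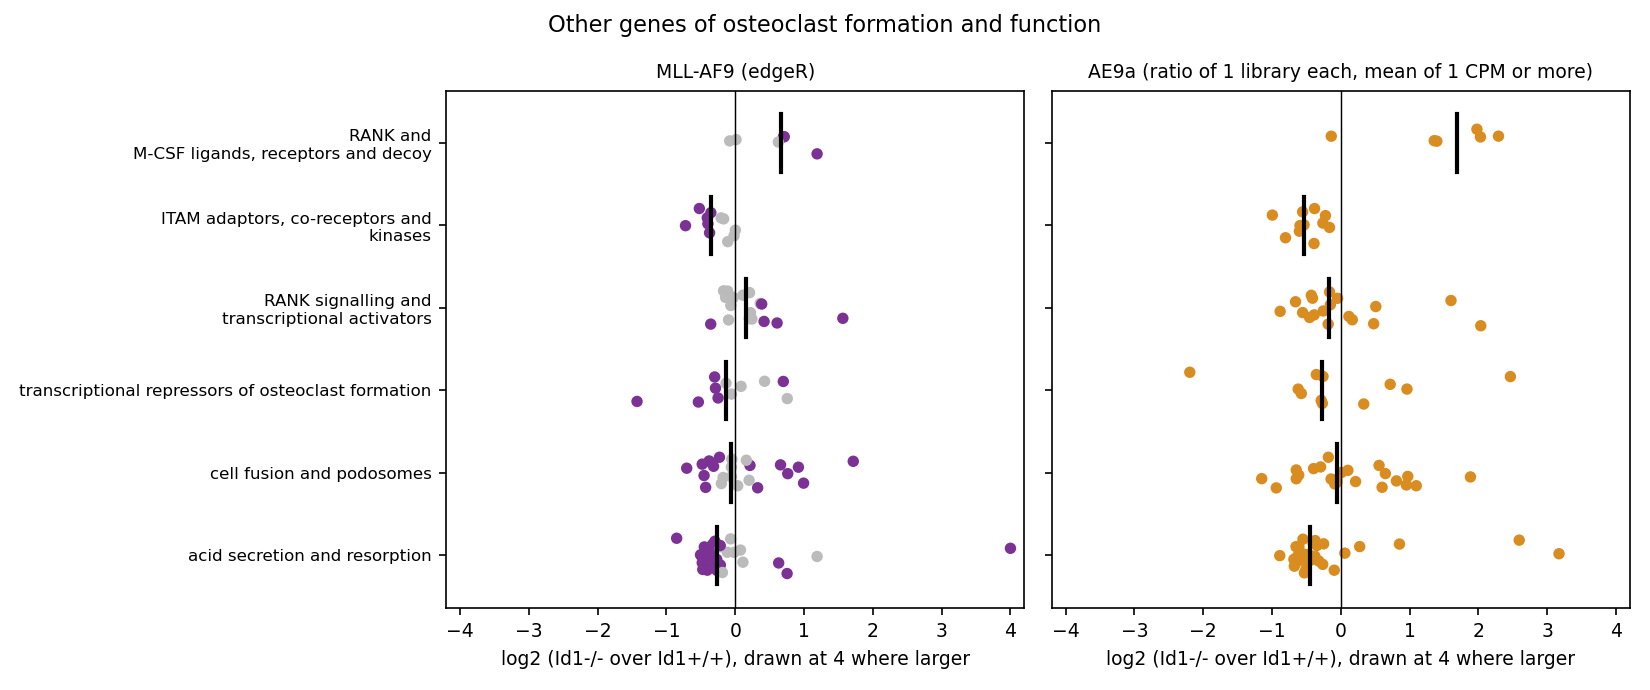
Log2 ratio of Id1-/- over Id1+/+ for each gene of 6 related lists, in MLL-AF9 (purple called, grey not called) and AE9a (orange, no test), with a black line at the median and values over 4 drawn at 4. The median of the ITAM list lies below 0 in both models, at -0.35 in MLL-AF9 and -0.53 in AE9a.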

How the data were processed

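The authors deposited raw read counts per gene in 1 table per leukaemia model, without normalization. Per the submitters' processing notes, the tools were DESeq2 1.32.0, featureCounts 2.0.1, HISAT2 2.2.1 and fastp 0.22.0 and the genome was mm10, with no role given. The annotation release and strand setting are not given in the sources used here, so genes that overlap may share reads. In AE9a, Id1-/- replicate 2 equals replicate 1 plus 17 in 14187 of 14187 genes with 10 or more counts, and Id1+/+ replicate 1 equals replicate 2 plus 134 in 17957 of 17958 genes with 2 or more counts. Only Id1-/- replicate 1 and Id1+/+ replicate 2 were used, as 1 library each.

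MLL-AF9 counts were filtered (filterByExpr), TMM-scaled and compared by the two-sided quasi-likelihood test of edgeR 4.0.16 in R 4.3.3, with Benjamini-Hochberg adjustment over all genes and a threshold of 0.05. AE9a ratios carry 95% Clopper-Pearson intervals, which like the limits for 0 counts cover counting error only. The interaction came from a joint fit. The fits were also run on simulated counts with the same spread assumed for all genes, and no result here rests on that run. Alternatives were DESeq2 1.42.0, limma-voom (limma 3.58.1), other scalings, no filter, a replicate block and leaving out each library. Exon lengths are from GENCODE on GRCm38.

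The 9 genes and the related lists were chosen with earlier results of these data known. All 9 are named. Of each related list, up to 4 called genes per direction with the smallest adjusted p could be named, with fixed pathway genes. Patterns name the 3 genes with the highest r.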

Additional observations from a re-analysis of the deposited data

Results flagged for a closer look

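Some genotype differences themselves differed between the models. All values are the AE9a minus MLL-AF9 difference of log2 Id1-/- over Id1+/+ from the joint edgeR fit, with Benjamini-Hochberg adjusted p. Among the osteoclast genes these were Ctsk (-1.13, adjusted p = 0.000424) and Acp5 (-0.97, adjusted p = 0.00188). Both were higher in Id1-/- in MLL-AF9 and lower in Id1-/- in AE9a. For Acp5 the AE9a log2 ratio was -0.26 with TMM scaling but only -0.061 with library totals.

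Of all 15110 genes, 10.3% were called in this test. Some of the related genes were named for a small MLL-AF9 adjusted p, and the MLL-AF9 effect is part of the difference tested. That choice favours a call for those genes, so the number called is no result. Among the related genes that the rule for names covers, positive differences were found for Tnfsf11 (2.17), Mmp9 (1.87), Csf1 (1.24) and Fos (0.53). Negative ones were found for Car2 (-4.86), Ppargc1b (-2.04), Itgb3 (-1.06), Id1 (-0.86), Mmp14 (-0.78), Tcirg1 (-0.71), Clcn7 (-0.66), Pstpip1 (-0.65) and Mitf (-0.49). The smallest adjusted p of these was 6.76e-05 (Csf1) and the largest 0.0432 (Mitf). Of 8 alternatives, the call was lost in 7 for Mitf (adjusted p up to 0.259), in 5 for Id1 (up to 0.212), in 2 each for Car2, Tcirg1 and Pstpip1, and in 1 each for Tnfsf11 (DESeq2, 0.0933) and Fos (without MLL-AF9 Id1-/- replicate 2, 0.109). Itgb3, the integrin of the osteoclast sealing zone, was at 103 CPM in AE9a Id1-/- and 228 CPM in AE9a Id1+/+. Car2 was higher in Id1-/- in both models, with an AE9a ratio of 9.01. Its MLL-AF9 Id1+/+ libraries had only 7 and 5 counts.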

How the results depend on the processing

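The MLL-AF9 calls of Acp5, Ctsk, Atp6v0d2 and Dcstamp held in all 10 alternatives, and the interaction calls of Acp5 and Ctsk in all 8. Scaling by library totals moved the median MLL-AF9 log2 fold change to 0.11, the interaction median to 0.12 and AE9a ratios by 0.20. Under it AE9a log2 ratios were -0.12 for Tnfrsf11a, -0.13 for Nfatc1, -0.42 for Atp6v0d2, -0.061 for Acp5 and -0.34 for Ctsk, the interaction of Dcstamp was 1.29 (edgeR adjusted p = 0.0474), those of Atp6v0d2 and Tnfrsf11a were 0.04 and 0.02, and 7 activators and 2 repressors rose and 2 repressors fell. DESeq2 called 771 interactions and 4 fusion genes higher. Causes were not tested.

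With the replicate block, Tnfrsf11a was called at the same -0.22 (edgeR adjusted p = 0.0189), 2 activators fell, and 5193 genes were called against 3936. The same-numbered libraries deviated together with a correlation of 0.069. With 2 libraries per genotype this value cannot show whether the numbers pair them.

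Leaving out 1 library at a time, the MLL-AF9 count was 2225 to 3864 (2225 without Id1-/- replicate 1, 2319 without Id1+/+ replicate 1, 2477 without Id1-/- replicate 2) and the interaction count 900 (without Id1-/- replicate 2) to 1762. The list counts were 2 to 4 for activators higher, 2 to 4 for repressors lower, 3 to 5 for fusion genes higher and 4 to 7 lower, 2 to 3 for ligands and receptors higher, 11 to 16 for resorption genes lower and 9 to 11 for pump genes lower. Interactions were -0.60 to -0.42 for Nfatc1, called without Id1+/+ replicate 2 or Id1-/- replicate 1, and 0.96 to 1.27 for Dcstamp, called without the same libraries. Tnfrsf11b lost its call without Id1+/+ replicate 2 (0.51) or Id1-/- replicate 1 (0.61). AE9a has 1 library per genotype, so its ratios have no replicate check.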
